A study of Mus musculus with 6 samples.

Results

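The Zfp genes expressed in muscle stem cells were followed from input RNA through an IgG control immunoprecipitation and a CPEB1 immunoprecipitation. A gene was taken when its symbol was Zfp followed by a number and at most 1 letter, and when the 2 input libraries together held at least 100 raw counts on it. Zfp36 was left out, since it encodes an RNA-binding protein of another finger type. The rule found 97 genes among 399 genes of that name pattern and 55376 genes in the tables. The genes were thus chosen by their input counts, and levels in input are given below as a description. At the limit, Zfp646 with 99 counts, Zfp160 with 98 and Zfp398 with 98 fell just outside, and Zfp654 with 102, Zfp26 with 103 and Zfp821 with 103 fell just inside.

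Satellite cells (SCs), the muscle stem cells, came from C57BL/6 mice aged 3 months, and the study's methods describe sorting by CD31-, CD45-, Sca1- and Vcam1+ surface staining. All 6 libraries were made from freshly isolated SCs (fiSCs) with no other treatment, 2 each from RNA precipitated with an antibody to CPEB1 (CPEB1 IP), RNA precipitated with IgG (IgG IP) and input RNA taken without an antibody. RNA immunoprecipitation sequencing (RIP-seq) measures which RNAs come down with a protein, and the comparison of CPEB1 IP with IgG IP asks which transcripts associate with CPEB1. The labels do not say whether the libraries of a group came from separate mice, so p-values measure the spread between these libraries.

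Most mouse Zfp genes encode C2H2 zinc finger proteins, in which pairs of cysteines and histidines hold a zinc ion in each finger and rows of fingers read DNA, or in some members RNA. Many of them carry a KRAB domain, through which they recruit the corepressor Trim28 and silence retroelements and imprinted loci. CPEB1 binds the cytoplasmic polyadenylation element (CPE), a U-rich motif in the 3′ UTR, and controls the poly(A) tail and the translation of the bound mRNA. In stem cells, transcripts can be stored and translated later.

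Counts on genes came to between 3270067 and 3314547 in input, 1284716 and 1359052 in IgG IP, and 2564323 and 4941653 in CPEB1 IP, so the IgG libraries were the shallowest. All 10 satellite cell markers on the list had counts in input, where they summed to between 12400 and 13700 CPM (TMM-scaled counts of a library brought to 1 total), against 9200 to 9360 in IgG IP and 10100 to 12100 in CPEB1 IP. Markers of other cells were not absent: 6 fibro-adipogenic genes summed to between 2510 and 2540 CPM in input, 1060 and 1130 in IgG IP and 1430 and 1450 in CPEB1 IP. The 6 endothelial genes summed to 117 to 123 CPM in input, 243 to 254 in IgG IP and 327 to 350 in CPEB1 IP. The 4 erythroid genes went from 6.04 to 9.29 CPM in input to 69.5 to 77.4 in IgG IP and 73.0 to 85.5 in CPEB1 IP, and the 6 immune genes from 22.3 to 32.9 to 66.5 to 74.6 and 55.7 to 67.6. None of the listed markers was at 0 in input, and the part of these cells in the values below was not tested. In bulk RNA, fewer cells of a type and less RNA per cell cannot be told apart.

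Canonical CPEs (TTTTAT or TTTTAAT, read on the transcript strand) were present in a 3′ UTR of 73 of the 95 Zfp genes with an annotated 3′ UTR, or 76.8%, against 66.9% of the 10886 tested genes with a 3′ UTR. Their longest 3′ UTRs had a median of 1733 bases, against 1285 bases for all tested genes. The number of CPEs in a gene had a median of 3 and reached 27 in Zfp148. Sites from 3 genes higher and 3 genes lower in CPEB1 IP than in IgG IP are printed to show that the same motifs stood in both, with 30 bases of the 3′ UTR around 1 site per gene, 5′ to 3′ on the gene's strand of GENCODE M21 transcripts on mm10, and with each motif in capitals.
Zfp275, chrX:73359044-73359073, plus strand: catctagtagaTTTTAATaaatatatgtta
Zfp281, chr1:136629945-136629974, plus strand: aatttctttaacTTTTATtgtgtgtactga
Zfp706, chr15:36997824-36997853, minus strand: tctttaaaatatTTTTATatttgcaacgct
Zfp384, chr6:125037719-125037748, plus strand: acTTTTAATttTTTTAATcatgggagattt
Zfp462, chr4:55083168-55083197, plus strand: gtcatttttttgTTTTATttttcaaacata
Zfp598, chr17:24681955-24681984, plus strand: ttgcctctgacaTTTTATaaaagacagttt
The first 3 belong to genes higher in CPEB1 IP and the last 3 to genes lower in it, and the stretch of Zfp384 holds 2 motifs. Zfp275 carried 10 CPEs in all, Zfp281 9 and Zfp706 4, against 5 in Zfp384, 13 in Zfp462 and 1 in Zfp598.

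The Zfp transcripts were mostly of low abundance in input. On the deposited FPKM scale, which corrects for exon length, their mean input level ran from 0.843 for Zfp26 to 37.1 for Zfp655, with a median of 4.88, and 80 of the 97 were under 10 FPKM. For all genes with at least 100 input counts the median was 8.93 FPKM. Zfp655 stood at 32.1 and 42 FPKM in the 2 input libraries. Zfp207, a spindle and splicing protein also known as BuGZ, stood at 31.0 and 36.0 FPKM. The next in order were Zfp948 (28.6 and 29.6), Zfp706 (23.0 and 29.1), Zfp954 (23.0 and 25.3), Zfp131 (20.2 and 22.6), Zfp830 (17.9 and 20.7) and Zfp281 (13.8 and 18.1 FPKM). Of these 8, Zfp948 and Zfp954 carry a KRAB box. The ranges of neighbours in this order overlapped for Zfp655 and Zfp207, for Zfp948 and Zfp706, for Zfp706 and Zfp954, for Zfp131 and Zfp830 and for Zfp830 and Zfp281, and their order is not set by these data. The larger of the 2 input values was at the median 1.22 times the smaller, and at most 1.86 times, for Zfp367 with 3.07 and 5.72 FPKM.

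**Figure D1:**
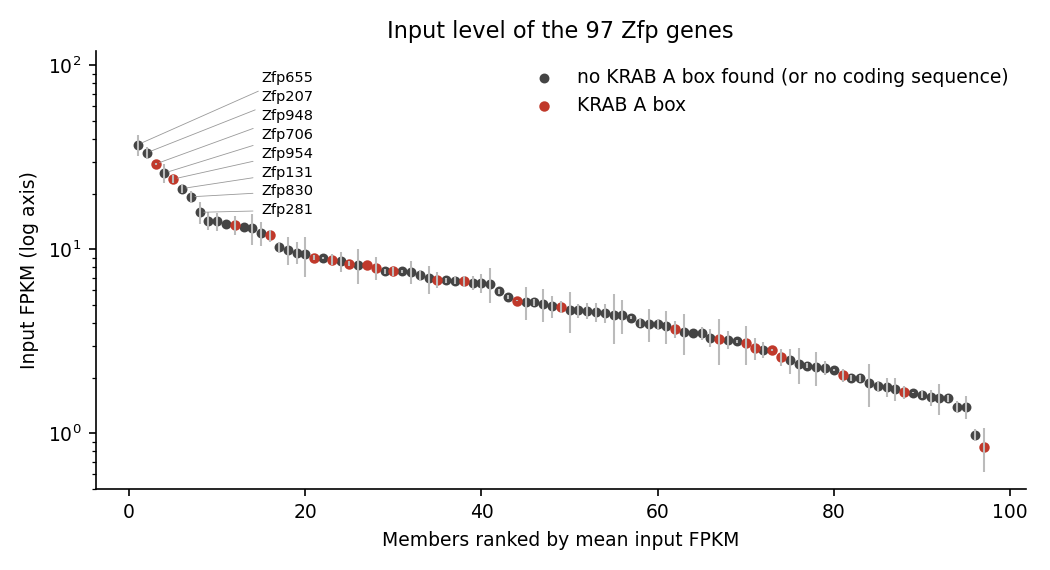
Input level of the 97 Zfp genes, ranked by the mean of the 2 input libraries, on a log axis of deposited FPKM; points are means, grey lines join the 2 libraries, and red points are genes whose protein carries a KRAB A box. The named genes are the 8 highest, from Zfp655 at 37.1 to Zfp281 at 15.9 FPKM, and most genes lie under 10 FPKM.

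Summed, the Zfp genes received nearly the same share of every library. They held 0.5207% and 0.5196% of the counts on genes in input, 0.5183% and 0.512% in IgG IP, and 0.5089% and 0.5178% in CPEB1 IP. The means were 0.520% ± 0.000778 in input, 0.515% ± 0.00445 in IgG IP and 0.513% ± 0.00629 in CPEB1 IP (SD, n = 2), and the ranges of IgG IP and CPEB1 IP overlapped. The 302 Zfp-named genes under the input limit held another pattern, with 0.123% and 0.120% of counts in input and 0.122% and 0.134% in CPEB1 IP, but 0.187% and 0.191% in IgG IP, above every other library. These 302 were chosen for low input counts, so only their 2 immunoprecipitations can be compared. With 2 libraries against 2, no exact test can reach 0.05. The IgG libraries had counts on 32381 and 32328 genes of any kind, against 25280 and 29465 in CPEB1 IP. Other genes of low input were not set beside the 302, so whether their IgG share is particular to Zfp genes was not tested. The totals implied by the deposited FPKM are larger and hold reads not counted on genes, of a kind not stated. Against these totals the 97 genes took 0.3701% and 0.4149% in input, 0.205% and 0.2001% in IgG IP, and 0.3557% and 0.3599% in CPEB1 IP. On that scale the IgG libraries were lowest, as they were for genes in general. Counts on genes made up 39.55% and 39.08% of the total in IgG IP, and 69.9% and 69.51% in CPEB1 IP.

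**Figure D2:**
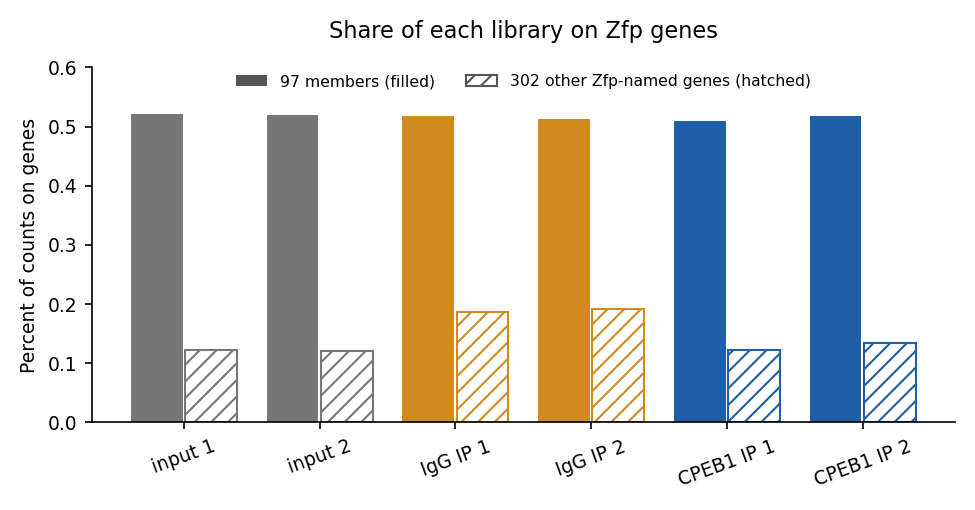
Percent of the counts on genes that fell on Zfp genes in each of the 6 libraries; filled bars are the 97 genes described here and hatched bars the 302 Zfp-named genes with fewer input counts. The filled bars lie between 0.5089% and 0.5207% in all 6 libraries, and the hatched bars are highest in the 2 IgG libraries, at 0.187% and 0.191%.

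Between CPEB1 IP and IgG IP, which the rule did not use, 7 Zfp genes were higher in CPEB1 IP, 9 were lower and 81 did not pass the test (edgeR's quasi-likelihood test, adjusted p under 0.05 over all genes tested). All 97 passed the filter on low counts. The calls made up 16.5% of the Zfp genes, against 33.4% of the 12124 genes tested, of which 14.7% were higher and 18.7% lower. Among the 7150 tested genes with input counts in the same range, from 102 to 1945, 27.6% were called, 19.3% as higher and 8.28% as lower. The median log2 fold change was -0.002 for the Zfp genes, -0.01 for all genes tested and 0.14 for genes in the same input range. On the log2 scale 73 of the 97 Zfp genes (75.3%) lay within 0.5 of 0, against 58.5% of all genes tested and 72.3% of the genes in the same input range. With TMM scaling, no Zfp gene reached a log2 fold change of 1 upward, and 3 passed 1 downward. The median standard error of a Zfp gene was 0.21 on the log2 scale, so changes of the size of most of these values could not be told from 0 with 2 libraries a group.

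The 2 CPEB1 IP libraries were both above both IgG libraries for 33 Zfp genes and both below for 23, where such separation was found for 35.8% and 30.8% of all genes tested. At an unadjusted p under 0.05 the test took in 30 of the 97 (30.9%), against 42.3% of all genes tested. The direction of the set depends on the scaling: with the deposited FPKM totals as library sizes the median of all genes moved to 0.84 and that of the Zfp genes to 0.81, with 68 of the 97 higher and 0 lower, where 62.7% of all genes tested were higher and 4.53% lower. Under these 2 scalings the median of the Zfp genes lay within 0.05 of that of all genes tested. The paper called targets by an FPKM ratio over 2 in each experiment and a DESeq2 adjusted p under 0.05, a rule not applied here. Upward changes over 2 times did occur on the FPKM scale. For example, Zfp275 had 6.47 and 5.9 FPKM in CPEB1 IP against 2.74 and 1.58 in IgG IP (DESeq2 adjusted p = 0.0018). In the same order, Zfp148 had 4.44 and 4.67 against 2.05 and 1.94 FPKM (DESeq2 adjusted p = 0.0156). Zfp516 had 3.2 and 4.22 against 1.49 and 1.56 FPKM (DESeq2 adjusted p = 0.042). By edgeR neither Zfp148 nor Zfp516 was called. How many Zfp genes met the paper's rule was not counted.

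**Figure D3:**
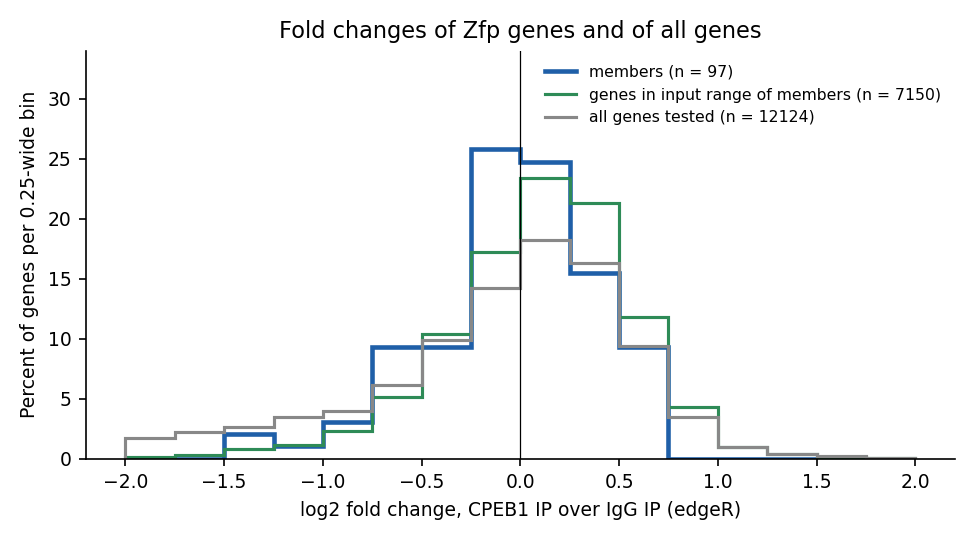
Percent of genes in each 0.25-wide bin of log2 fold change in CPEB1 IP over IgG IP, for the 97 Zfp genes, the 7150 genes in their range of input counts and all 12124 genes tested; values outside -2 to 2 are not drawn. The Zfp genes lie around a median of -0.002, and none lies above 0.74.

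The 7 genes higher in CPEB1 IP rose by 1.31 to 1.67 times. Zfp706, which encodes a protein of 76 residues with 1 finger and is known for restraining self-renewal in embryonic stem cells, stood at 287 and 261 CPM in CPEB1 IP, 207 and 184 in IgG IP and 159 and 186 in input. Its 2 CPEB1 IP values lay above all other libraries, and its log2 fold change over IgG IP was 0.42 (SE 0.11, adjusted p = 0.00493). It was the only one of the 7 that stayed called when any 1 of the 4 libraries was left out, with an adjusted p of at most 0.042. The gene lies at chr15:36997027-37007773, and 5.0% of its 75-base windows also occur in other genes' transcripts, so some of its reads could be placed elsewhere. It also overlaps exons of Gm26766.

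Zfp281, a factor of pluripotent and differentiating cells with 3 fingers, stood at 120 and 118 CPM in CPEB1 IP, 97.9 and 76.0 in IgG IP and 94.8 and 115 in input. Both CPEB1 IP values lay above the IgG and input values, which overlapped each other, and the log2 fold change over IgG IP was 0.39 (SE 0.14, adjusted p = 0.0374). Zfp335, a subunit of a histone methyltransferase coactivator complex and a microcephaly gene in people, stood at 54.9 and 55.8 CPM in CPEB1 IP, 35.9 and 29.4 in IgG IP and 51.9 and 31.3 in input. Its log2 fold change was 0.70 (SE 0.20, adjusted p = 0.00891), and CPEB1 IP was above IgG IP but close to the higher input library. Zfp644, a partner of the G9a and GLP histone methyltransferases, stood at 67.2 and 59.5 CPM in CPEB1 IP, 44.1 and 40.2 in IgG IP and 24.5 and 33.5 in input, so the 3 groups were ordered without overlap. Its log2 fold change over IgG IP was 0.51 (SE 0.18, adjusted p = 0.0322). Zfp335 overlaps exons of Pcif1 and Zfp335os and Zfp644 those of Gm28039, and without strand in the counting the reads of such neighbours cannot be told apart.

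Of the other 3 higher genes, Zfp46 and Zfp868 encode KRAB proteins with 12 and 9 fingers, and Zfp275 has 11 fingers and no KRAB box. Zfp46 stood at 28.3 and 27.0 CPM in CPEB1 IP, 17.2 and 14.3 in IgG IP and 20.2 and 19.2 in input, at 0.74 on the log2 scale (SE 0.28, adjusted p = 0.0491). Zfp868 stood at 61.1 and 48.7 CPM in CPEB1 IP, 34.4 and 33.0 in IgG IP and 48.3 and 56.4 in input, at 0.62 on the log2 scale (SE 0.20, adjusted p = 0.0228). Zfp275 stood at 65.6 and 57.5 CPM in CPEB1 IP, 44.8 and 26.5 in IgG IP and 60.7 and 87.0 in input, at 0.71 on the log2 scale (SE 0.21, adjusted p = 0.0126). In Zfp868 and Zfp275 the CPEB1 IP and input ranges overlapped and IgG IP was the lowest group. Of the windows of Zfp868, 2.81% also occur in other genes' transcripts. Its most shared gene was Zfp869, 77107 bases away on chromosome 8. Zfp869 itself, at 0.30 on the log2 scale, was not called (adjusted p = 0.17).

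The 9 genes lower in CPEB1 IP spanned a wider range of log2 fold changes, from -1.36 to -0.40. Zfp384, a nuclear factor known as a fusion partner in leukaemia, stood at 10.2 and 11.8 CPM in CPEB1 IP, 30.6 and 24.4 in IgG IP and 20.2 and 19.8 in input. It lay below both other groups, with a log2 fold change over IgG IP of -1.36 (SE 0.31, adjusted p = 0.00205). Zfp407, with 22 fingers, stood at 8.61 and 15.2 CPM in CPEB1 IP, 29.1 and 32.3 in IgG IP and 22.3 and 17.7 in input (log2 fold change -1.352, SE 0.31, adjusted p = 0.00218). Zfp280d stood at 47.5 and 54.0 CPM in CPEB1 IP, 105 and 80.3 in IgG IP and 50.4 and 51.1 in input (log2 fold change -0.92, SE 0.16, adjusted p = 0.00025). For Zfp280d, CPEB1 IP was at the input level and IgG IP was the group that stood apart. These 3 stayed called with any 1 library left out, with adjusted p of at most 0.0235, 0.0287 and 0.00874.

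Zfp598, the ubiquitin ligase that marks collided ribosomes, stood at 59.8 and 66.4 CPM in CPEB1 IP, 74 and 89.6 in IgG IP and 59.5 and 48.0 in input (log2 fold change -0.43, SE 0.16, adjusted p = 0.0376). Zfp948, the KRAB gene of high input level, stood at 97.1 and 101 CPM in CPEB1 IP, 123 and 127 in IgG IP and 105 and 101 in input (log2 fold change -0.40, SE 0.13, adjusted p = 0.0176). Zfp687, mutated in a bone disease of people, stood at 41.4 and 39.0 CPM in CPEB1 IP, 56.0 and 67.4 in IgG IP and 60.7 and 44.3 in input (log2 fold change -0.69, SE 0.18, adjusted p = 0.00563). In these 3 the CPEB1 IP values lay below both IgG values. Against input they lay above it for Zfp598, beside it for Zfp948 and below it for Zfp687. With the deposited FPKM totals as library sizes the signs of these 3 turned, to 0.38 for Zfp598, 0.408 for Zfp948 and 0.118 for Zfp687 on the log2 scale.

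The remaining 3 lower genes had few counts, as had Zfp384 and Zfp407. The 2 input libraries together held 132 counts on Zfp462, 131 on Zfp608 and 145 on Zfp783, against 131 each on Zfp384 and Zfp407. Zfp462, a chromatin factor with 33 fingers, stood at 15.6 and 16.2 CPM in CPEB1 IP, 32.9 and 24.4 in IgG IP and 22.3 and 18 in input (log2 fold change -0.90, SE 0.28, adjusted p = 0.0179). Zfp608 stood at 18.4 and 14 CPM in CPEB1 IP, 29.9 and 24.4 in IgG IP and 23.5 and 16.4 in input (log2 fold change -0.84, SE 0.29, adjusted p = 0.0318). Zfp783 stood at 11.5 and 12.4 CPM in CPEB1 IP, 24.7 and 25.1 in IgG IP and 27.8 and 16.4 in input (log2 fold change -1.11, SE 0.31, adjusted p = 0.00833). GENCODE lists Zfp783 as a transcribed pseudogene, and its exons overlap those of Zfp956.

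All 16 called genes kept their direction when any 1 of the 4 libraries was left out, but 4 kept their call in every case: Zfp706, Zfp384, Zfp407 and Zfp280d. Without CPEB1 IP replicate 1, 5 of the 16 stayed called, without CPEB1 IP replicate 2 or without IgG IP replicate 2 it was 6, and without IgG IP replicate 1 it was 13. Zfp608 and Zfp948 were lost in each case, with adjusted p between 0.0511 and 0.296 and between 0.0667 and 0.183. The highest adjusted p of the others was 0.217 for Zfp281, 0.0831 for Zfp335, 0.119 for Zfp687, 0.18 for Zfp462, 0.154 for Zfp46, 0.212 for Zfp644, 0.0581 for Zfp783, 0.21 for Zfp868, 0.357 for Zfp598 and 0.148 for Zfp275.

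**Figure D4:**
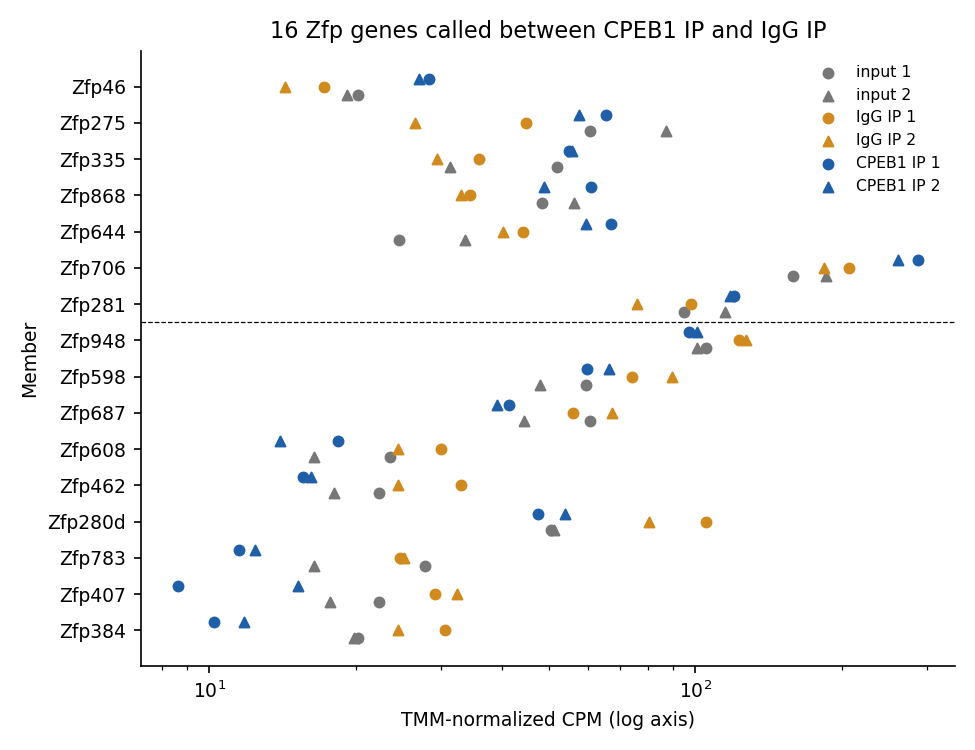
CPM scaled by TMM (log axis) in each library for the 16 Zfp genes called between CPEB1 IP and IgG IP, ordered by fold change with the 7 higher genes above the dashed line; circles are replicate 1 and triangles replicate 2 of input (grey), IgG IP (orange) and CPEB1 IP (blue). Blue and orange points do not overlap in any of the 16 genes, while grey points lie on either side of them, from Zfp384, where blue is lowest at 10.2 and 11.8, to Zfp706, where blue is highest at 287 and 261.

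The called genes of each direction are described here by input counts, which chose the genes, by exon content and by overlap. The 9 lower genes had a median of 145 input counts, and 6 of them overlapped exons of another gene. A median of 23.4% of their annotated exon bases lay outside the transcripts that code for protein. Zfp783 has no such transcript and is left out of this value. The 7 higher genes had a median of 342 input counts and 3.29% of such bases, and 3 overlapped another gene. For the 81 genes not called the medians were 232 counts and 10.1%, with 27 overlapping. Among the 36 genes that overlap exons of another gene, 3 were higher and 6 lower with a median log2 fold change of 0.04, and among the 61 that do not, 4 were higher and 3 lower with a median of -0.04. The exons overlapping Zfp384, Zfp280d and Zfp687 belong to 4930557K07Rik, BC065403 and Pi4kb. These features are described with no test, and the part of overlapping reads in the fold changes was not tested.

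Of the 10 genes listed for RNA processing or the ribosome, 9 were among the 97 and 1 was higher (Zfp706) and 1 lower (Zfp598). The calls made up 22.2% of the 9, against 33.4% of all genes tested. Whether each listed gene has such a role was not tested. Zfp207 stood at 304 and 263 CPM in CPEB1 IP and 295 and 310 in IgG IP, at -0.17 on the log2 scale (adjusted p = 0.236). Zfp106, an RNA-binding protein needed by motor neurons, stood at 163 and 153 CPM in CPEB1 IP and 161 and 145 in IgG IP (log2 fold change -0.02, adjusted p = 0.906). Zfp622, a factor of the large ribosomal subunit, had values of 127 and 80.6 CPM in CPEB1 IP around 96.4 and 82.5 in IgG IP (log2 fold change 0.11, adjusted p = 0.676). The splicing factors Zfp326 and Zfp638 did not pass (-0.38 with adjusted p = 0.0888 and -0.11 with adjusted p = 0.694), and Zfp593 had 0.18 and Zfp217 0.06. The median of the 9 was -0.02, close to that of all genes tested, while genes in the input range of the Zfp genes had 0.14.

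Of the 9 listed genes that guard imprints or silence retroelements, 2 were expressed above the limit and neither was called. Zfp445, which maintains imprints, stood at 57.8 and 58.3 CPM in CPEB1 IP, 49.3 and 45.9 in IgG IP and 84.8 and 78.4 in input (log2 fold change over IgG IP 0.22, adjusted p = 0.354). Zfp568, a repressor of a placental transcript of Igf2, stood at 99.6 and 94.4 CPM in CPEB1 IP and 86.7 and 103 in IgG IP (log2 fold change -0.04, adjusted p = 0.875). Zfp57, the best known member of this class, had 18 counts in the 2 input libraries together, and Zfp809 had 81.

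Of the 17 listed lineage and differentiation genes, 12 were among the 97, with Zfp281 and Zfp335 higher and none lower, and a median log2 fold change of 0.14. The calls made up 16.7% of the 12, against 33.4% of all genes tested, of which 14.7% were higher. Among genes in the input range of the Zfp genes 19.3% were higher, and their median log2 fold change was also 0.14. Zfp148, with the most CPEs, stood at 69.3 and 70.1 CPM in CPEB1 IP, 51.6 and 50.2 in IgG IP and 57.7 and 67.2 in input. Its log2 fold change of 0.39 (SE 0.16) missed the threshold by edgeR (adjusted p = 0.0726). Zfp516, a factor of brown fat, stood at 39.8 and 50.4 CPM in CPEB1 IP, 29.9 and 32.3 in IgG IP and 74.9 and 92.0 in input (log2 fold change over IgG IP 0.49, SE 0.21, adjusted p = 0.0832). Both immunoprecipitations of Zfp516 lay below input. Zfp536, a repressor of neuronal differentiation, showed the same order, with 24.2 and 22.7 CPM in CPEB1 IP, 17.2 and 21.5 in IgG IP and 67.9 and 40.9 in input (log2 fold change over IgG IP 0.20, adjusted p = 0.625). Zfp703 and Zfp91 had values of 0.07 and 0.01, Zfp24 of 0.28, Zfp110 of 0.01, Zfp521 of -0.11, Zfp62 of -0.15 and Zfp386 of -0.19 on the log2 scale, with none called.

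A KRAB A box was found in the proteins of 23 of the 96 Zfp genes with a coding sequence, and the number of C2H2 fingers ran from 0 to 36 with a median of 8. Zfp142 had 36 fingers, Zfp462 had 33 and Zfp236 had 30, while Zfp703 and Zfp330 had none that matched the spacing pattern. Of the 23 KRAB genes, 2 were higher in CPEB1 IP and 1 lower, with a median log2 fold change of -0.04, and of the 73 without a KRAB box, 5 were higher and 7 lower, with a median of 0.01. By finger number, 2 were higher and 2 lower of the 20 genes with 0 to 3 fingers, 2 and 3 of the 42 with 4 to 9, and 3 and 3 of the 34 with 10 or more, with medians of 0.04, 0.01 and -0.02. The KRAB genes spanned log2 fold changes from -0.74 for Zfp9 (adjusted p = 0.11) to 0.74 for Zfp46.

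Of the 73 Zfp genes with a CPE, 5 were higher in CPEB1 IP and 7 lower, with a median log2 fold change of -0.02. Of the 22 with a 3′ UTR and no CPE, 2 were higher (Zfp335 and Zfp868) and 1 lower (Zfp948). Their median was 0.01. Calls made up 16.4% of the 73 and 13.6% of the 22, against 33.4% of all genes tested. Whether a CPE bears on the fold changes was not tested. Zfp462 with 13 CPEs was lower and Zfp275 with 10 was higher, and Zfp950 with 18, Zfp26 with 17, Zfp871 with 15 and Zfp652 with 15 were not called, with values of -0.57, 0.25, 0.02 and 0.32 on the log2 scale.

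**Figure D5:**
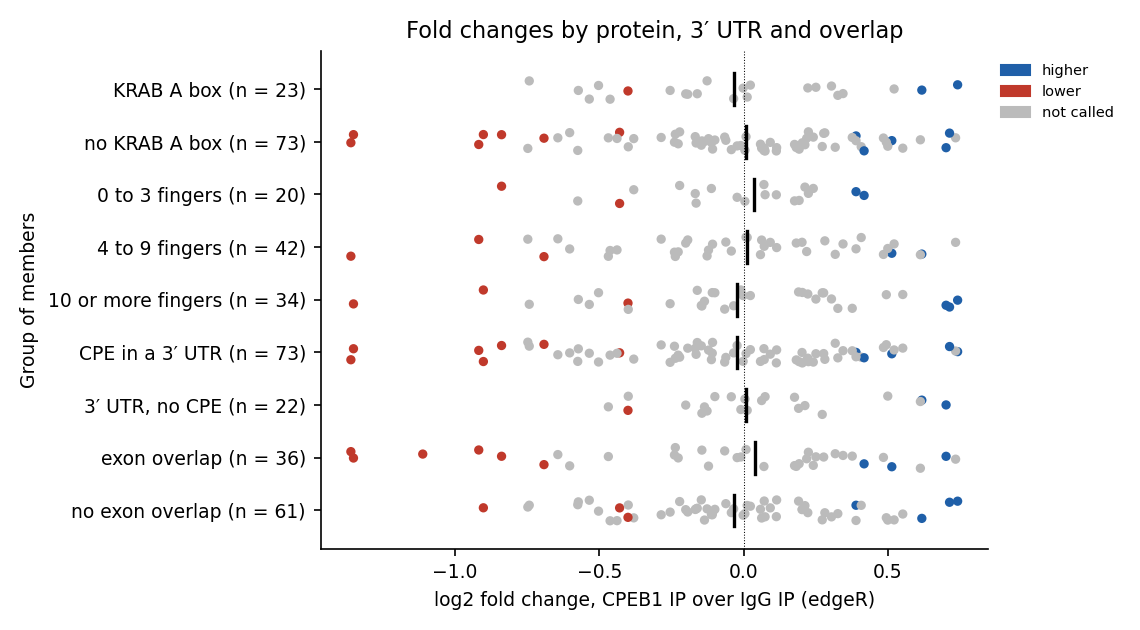
log2 fold change in CPEB1 IP over IgG IP for each Zfp gene, split by KRAB A box, number of fingers, CPE and exon overlap; each point is a gene, placed at random within its row, blue if higher, red if lower and grey if not called, and the black bar is the median. The medians of all 9 groups lie between -0.04 and 0.04.

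The Zfp genes lay on 19 chromosomes, with 14 of them on chromosome 7. Only 7 pairs of neighbours were less than 100 kb apart, and neighbours did not always move together. Zfp212 and Zfp783 lie 10531 bases apart on chromosome 6. Zfp212 had 0.52 on the log2 scale (adjusted p = 0.149), and Zfp783 had -1.11. Zfp26 and Zfp266 on chromosome 9, both KRAB genes, had 0.25 and -0.46, neither called, while Zfp692 and Zfp672 on chromosome 11, 486 bases apart, had -0.06 and -0.01. For 72 of the 97 genes no 75-base window occurred in another gene's transcripts, and 7 shared over 1% of windows. The highest share with all other genes was 9.37% for Zfp697, whose most shared gene was Gja5.

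Against input, the level that chose the genes, the calls are given as a description only, and nothing is concluded from them. In CPEB1 IP, 13 Zfp genes were higher and 15 lower than in input (28.9%, against 32.8% of all genes tested, of which 17% were higher and 15.8% lower). In IgG IP, 4 were higher and 15 lower (19.6%, against 40.7% of all genes tested, of which 21.4% were higher and 19.4% lower). The median log2 fold changes were 0.06 and -0.03. The lists overlap in part: Zfp512, Zfp954, Zfp536, Zfp869, Zfp266, Zfp445, Zfp692, Zfp652 and Zfp516 were lower in both immunoprecipitations, and Zfp180 and Zfp263 were higher in both. The 2 comparisons share the input libraries. Zfp180 had log2 fold changes over input of 1.01 (SE 0.20) in CPEB1 IP and 0.996 (SE 0.26) in IgG IP, and Zfp516 had -0.81 (SE 0.18) and -1.42 (SE 0.23).

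For genes called between CPEB1 IP and IgG IP, the values against input are given as a description. In CPEB1 IP over input, Zfp644 and Zfp706 had log2 fold changes of 1.18 (SE 0.19) and 0.72 (SE 0.13), and Zfp384 had -0.79 (SE 0.27). In IgG IP over input, Zfp275 and Zfp868, both higher in CPEB1 IP than in IgG IP, had -1.05 (SE 0.25) and -0.64 (SE 0.25), and Zfp280d and Zfp598, both lower, had 0.87 (SE 0.21) and 0.60 (SE 0.21).

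Cpeb1 mRNA itself stood at 194 and 212 CPM in CPEB1 IP, 88.9 and 93.9 in IgG IP and 96.0 and 80.8 in input (log2 fold change over IgG IP 1.09, SE 0.12, adjusted p = 2.5e-06), a larger change than that of any Zfp gene in the upward direction. Of 24 listed genes tested for the corepressors and heterochromatin proteins with which KRAB proteins work, 6 were higher in CPEB1 IP and 3 lower, with a median log2 fold change of 0.11. The calls made up 37.5% of the 24, against 33.4% of all genes tested, of which 14.7% were higher and 18.7% lower. Among genes in the input range of the Zfp genes 27.6% were called, 19.3% as higher and 8.28% as lower. Chd4, the ATPase of the NuRD complex, stood at 894 and 883 CPM in CPEB1 IP, 250 and 240 in IgG IP and 291 and 330 in input, a log2 fold change over IgG IP of 1.79 (SE 0.10, adjusted p = 7.02e-11). Atf7ip, the partner of the methyltransferase Setdb1, rose by 0.95 on the same scale (SE 0.12, adjusted p = 8.15e-06), Daxx by 0.83, Hdac1 by 0.74, Dnmt3a by 0.47 and Atrx by 0.29. Uhrf1 fell by 1.81, Suv39h2 by 1.15 and Smarcad1 by 1.11. Trim28, the KRAB corepressor, stood at 109 and 123 CPM in CPEB1 IP and 94.1 and 110 in IgG IP and was not called (log2 fold change 0.13, adjusted p = 0.509), and Setdb1 had 0.16 (adjusted p = 0.52). These signs held under every scaling tried, but with the deposited FPKM totals 18 of the 24 were called higher and 0 lower.

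Other finger families gave counts of their own, with the same input limit for the Zbtb, Zscan and Zkscan genes and none for the Klf, Sp and Egr genes, which were listed by name. Of 16 Zbtb genes, which pair fingers with a BTB domain, 3 were higher in CPEB1 IP (Zbtb1, Zbtb2 and Zbtb38, chosen for naming after their values were seen) and none lower by edgeR, with a median log2 fold change of 0.15. Of 7 Zscan and Zkscan genes none was called, with a median of 0.09. Of 20 listed Klf, Sp and Egr genes tested, 6 were higher and 1 lower, with a median of 0.25. Calls made up 18.8% of the Zbtb genes and 35% of the Klf, Sp and Egr genes. Of all genes tested 33.4% were called, 14.7% as higher, and of those in the Zfp input range 27.6%, 19.3% as higher. Whether these families differ from the Zfp genes was not tested.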

How the data were processed

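RIP-seq libraries were made by SMART-seq2 from fiSCs, 2 each for CPEB1 IP, IgG IP and input; groups came from the labels. Per the paper's methods and the submitters' processing notes, HISAT placed the reads on mm10 and featureCounts gave a number per gene; the authors deposited these raw counts, not normalized. The deposited FPKM divides the count by exon length and by a library total larger than the counts on genes. Strand setting, annotation release and treatment of multiply mapped reads are not given in the sources used here. SMART-seq2 keeps no strand.

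Counts were analysed with edgeR 4.0.16 in R 4.3.3 (filterByExpr, TMM, quasi-likelihood test, Benjamini-Hochberg over all genes tested, 2 groups at a time, threshold 0.05); the standard error is the log2 fold change divided by the square root of F. CPM used TMM factors over all 6 libraries, so its ratios can differ slightly from fitted folds. Gene positions were those of the deposited table, the same as in GENCODE M21 (GRCm38, the mm10 assembly) for 96 of the 97 genes, and all 97 were matched by symbol. Proteins were translated from the longest GENCODE coding sequence; a KRAB A box was an hmm hit (pyhmmer 0.12.3, E value of at most 1e-05, profile built from 97 windows), and fingers were counted by C2H2 spacing. CPEs were sought in every annotated 3′ UTR on the transcript strand; TTTTAT and TTTTAAT cannot start at the same base. The procedure was tested on simulated data. With 2 libraries a group, the error of a gene leans on that of genes of like abundance. Counts on a gene and library ran from 10 to 1408.

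The genes and the lists were chosen with earlier results of these data known. Named are all genes called between CPEB1 IP and IgG IP (the rule took up to 8 in each direction; Zfp948 entered by input level), the 8 of highest input FPKM, the role lists, the genes next to the input limit, Cpeb1 and the corepressors that passed the test; others were named after their values were seen. Alternatives were DESeq2 1.42.0, other library sizes, no filter, all 6 libraries in 1 fit, the replicate number as a block, input limits of 50 and 200, genes without exon overlap, and each library left out. Translated protein features and the genes in the same input range were added after the data were examined.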

Additional observations from a re-analysis of the deposited data

How the results depend on the processing

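In CPEB1 IP against IgG IP, DESeq2 gave 16 higher and 3 lower (median log2 fold change 0.282), no filter on low counts gave 28 and 2 (0.405), and deposited FPKM totals gave 68 and 0 (0.808). RLE size factors, counts on genes, all 6 libraries and an input limit of 50 kept both counts within 1.5 times. An input limit of 200 left 4 lower, and genes without exon overlap gave 4 higher and 3 lower. With 1 library left out, 1 to 9 were higher and 3 to 9 lower. For all genes tested, DESeq2 called 2619 higher and 984 lower and no filter 3513 and 2336, against 1779 and 2265. The median log2 fold change of all genes tested was -1.075 with DESeq2 and -0.9 with no filter, below those of the Zfp genes. Over those settings the tested genes differ in number (42045 against 12124).

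With deposited FPKM totals the sign turned for 43 of the 97 genes in CPEB1 IP over IgG IP and for 45 in IgG IP over input, of which 21 and 20 were called in at least 1 of the 2 fits. Among those 21 the genes named for their call, input level or role were Zfp106 (0.784), Zfp207 (0.641), Zfp326 (0.427), Zfp521 (0.699), Zfp568 (0.773), Zfp598 (0.38), Zfp62 (0.662), Zfp638 (0.698), Zfp687 (0.118), Zfp948 (0.408) and Zfp954 (0.682). Among those 20 they were Zfp110 (-0.822), Zfp131 (-0.757), Zfp207 (-0.859), Zfp280d (-0.009), Zfp598 (-0.271), Zfp687 (-0.640), Zfp706 (-0.702), Zfp91 (-0.631) and Zfp948 (-0.602). This scaling includes reads not counted on genes, so it shifts the genes of a comparison together.

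In IgG IP against input, DESeq2 gave 0 higher and 5 lower, deposited FPKM totals 0 and 68 (median -0.889), no filter 0 higher, all 6 libraries and counts on genes 7 higher each, and an input limit of 50 gave 10 higher; with 1 library left out, 3 to 5 were higher and 6 to 13 lower. In CPEB1 IP against input, DESeq2 gave 7 higher and 6 lower, deposited FPKM totals 7 and 23, an input limit of 200 gave 8 and 9, and genes without exon overlap gave 6 higher; with 1 library left out, 4 to 18 were higher and 4 to 20 lower. The share of counts became 0.392%, 0.203% and 0.358% in input, IgG IP and CPEB1 IP with deposited FPKM totals, 0.591%, 0.603% and 0.587% with an input limit of 50, and 0.438%, 0.426% and 0.432% with a limit of 200. For all genes tested, deposited FPKM totals gave 551 higher and 7172 lower of 12008 in IgG IP against input (median -0.931). In CPEB1 IP against input they gave 1222 and 2753 of 12046 (median -0.198). DESeq2 called 1188 higher and 1602 lower of all genes in IgG IP, and 1230 and 1190 in CPEB1 IP, against input. Except where a setting changes the number of genes or libraries, the cause was not tested.

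The correlation of deviations of same-numbered libraries was -0.0107 for CPEB1 IP and IgG IP, 0.0324 for IgG IP and input and -0.0206 for CPEB1 IP and input over 14276 genes. The paper sets each IP sample against the IgG sample of the same experiment, so those libraries may be paired. With 2 libraries a group, these correlations cannot decide whether they are. With the replicate block, 6 Zfp genes were higher and 9 lower in CPEB1 IP than in IgG IP, 12 and 12 in CPEB1 IP than in input, and 4 and 15 in IgG IP than in input. With 2 libraries a group and the fewest counts in IgG IP, changes under the standard errors given could not be detected. Changes above them could also be missed. In CPEB1 IP over IgG IP, Zfp322a had 0.734 on the log2 scale with SE 0.33 and was not called (edgeR adjusted p = 0.0933).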

Other observations

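Some Zfp genes lay just outside the threshold between CPEB1 IP and IgG IP; they were named after their values were seen. Zfp637, with 6 fingers, had a log2 fold change over IgG IP of 0.50 (SE 0.19, adjusted p = 0.0517). Zfp317, a KRAB gene with 13 fingers, had -0.50 (SE 0.20, adjusted p = 0.0601), and Zfp653, with 5 fingers and no CPE, had -0.47 (adjusted p = 0.0745). Zfp422 and Zfp322a had 0.41 (adjusted p = 0.0796) and 0.73 (adjusted p = 0.0933); the second is close to the highest called value, with a standard error of 0.33. In each of these 5 genes the 2 CPEB1 IP values did not overlap the 2 IgG values, a separation seen for 35.8% of all genes tested upward and 30.8% downward.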
